A study of Homo sapiens with 16 samples.

Results

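Chromatin accessibility after 2 h of the degrader dTAG47 was set against DMSO in Rh30 cells, in the experiment that the labels call 6211. The comparison uses 4 of the 16 libraries of the series, 2 libraries of cells given 500 nM dTAG47 for 2 h and 2 libraries of cells given DMSO, over all 40844 regions of that experiment's count table. The 2 tables of the series together gave 97789 regions that could be tested. The labels state no duration for DMSO. Accessibility was read by ATAC-seq, in which a transposase cuts and tags open DNA, so that a region's read count rises with how open it is.

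Rh30 is an established cell line from an alveolar rhabdomyosarcoma, a childhood tumour of cells that resemble skeletal muscle precursors. Its driver is PAX3-FOXO1, a fusion that joins the DNA-binding domains of PAX3, a regulator of muscle precursors, to the activation domain of FOXO1. The fusion is known to bind mostly distal enhancers, often together with the muscle regulators MYOD1 and MYOG, and to keep them open and active. All libraries, those with DMSO included, came from cells whose fusion carried an FKBP tag. dTAG47 brings FKBP-tagged proteins to a ubiquitin ligase for degradation. The amount of fusion protein was not analysed here, so that loss of the fusion and any other effect of the compound cannot be told apart. The labels do not say whether the cells were 1 clone or whether replicate libraries came from separate cultures, so that the spread behind every p-value is that of libraries and may be technical.

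The series has a second experiment, 6086, with its own DMSO group and with 2, 4 and 24 h of 500 nM dTAG47, and 6211 also has 0.5 and 1 h, with 2 libraries in every group. The 2 h libraries A and B of 6211 held 11777248 and 9934147 reads in regions, and the DMSO libraries A and B held 13559279 and 10707995. Spearman's correlation between the replicates was 0.966 at 2 h and 0.960 in DMSO. Levels are in CPM, read counts scaled to the TMM-adjusted total of the library, and 97.8% of regions were 401 bp wide, so that levels of single regions can be set side by side. Changes are log2 ratios of 2 h over DMSO. A region was called at an adjusted p under 0.05 in the quasi-likelihood test of edgeR, Benjamini-Hochberg adjusted over all 40844 regions. The test took its spread from all 8 libraries of 6211, those of 0.5 and 1 h included. Positions are on hg19. No hg19 annotation was used here: gene names rest on general knowledge of their hg19 positions, to the nearest kb. A region between 2 genes is named by both only where RefSeq on GRCh38 lists them as neighbouring protein-coding genes.

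As a check of the labelled cells, 6 of 8 genes that mark the myogenic tumour had an open region within 5 kb. MYOD1, MYOG, DES, CHRND, MYCN and FGFR4 had one, and MYF5 and MYF6 had none. Among genes of blood, liver, glia and keratinocytes, CD3E and GFAP had one, whereas PTPRC, ALB, APOA1, KRT5 and KRT14 had none. The most open region near MYOD1 had 99.4 CPM at 2 h and 97.6 CPM in DMSO.

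After 2 h, 2009 regions were lower (4.92% of those tested) and 806 were higher (1.97%), together 6.89%. Of these, 258 lower regions (0.632%) and 32 higher regions (0.0783%) had changed at least 2-fold, and 35 lower regions and 0 higher ones had changed at least 3-fold. The higher regions were of 2 kinds in position. A stretch of chromosome 12 from 57 to 59 Mb held 125 of them among its 250 regions (50%) and 2 lower ones (0.8%), and it is described apart. Outside it lay 2007 lower regions (4.94% of 40594) and 681 higher regions (1.68%). The lower regions outside had a median of 14.2 CPM at 2 h and 22.5 CPM in DMSO, and a median log2 change of -0.60. The higher ones outside had medians of 21.8 CPM at 2 h and 15.7 CPM in DMSO, and a median log2 change of 0.47. The median over all regions was 0.00 on the same scale (0.00355). For scale, both 2 h libraries lay below both DMSO libraries in 9706 regions (23.8%), and above both in 10225 regions (25%), called or not. Both counts moved with single libraries: outside the stretch 90 higher and 1118 lower regions were called without 2 h library B, 149 and 1291 without DMSO library A, and 375 and 1505 without 2 h library A. With only the 2 h and DMSO libraries in the edgeR fit, 306 and 1586 were called there. DESeq2 called 110 and 1184. The authors' deposited table equals that DESeq2 run in log2 change and adjusted p in all 40844 regions (within 1e-06), so it adds no separate check.

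**Figure D1:**
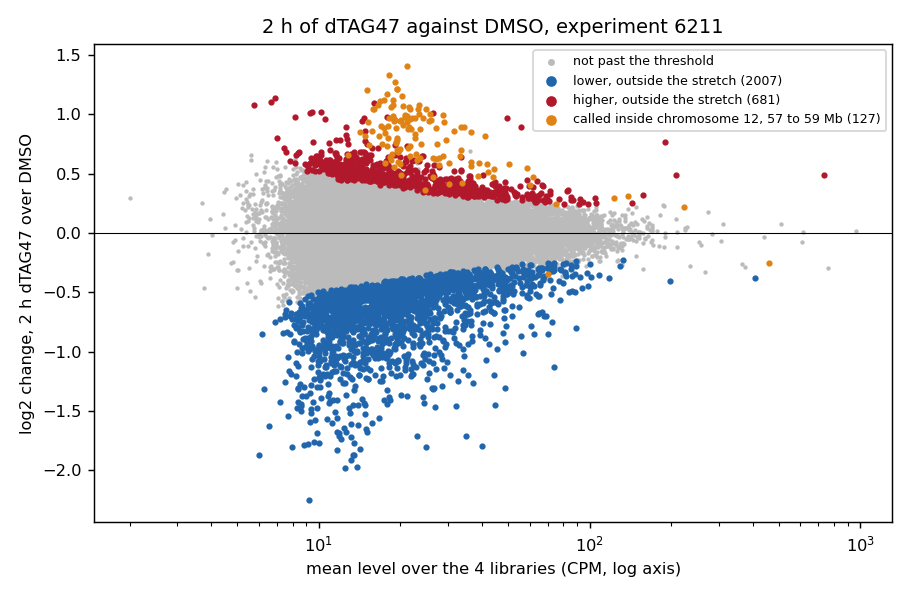
Each point is a region, with its mean level over the 2 h and DMSO libraries in CPM on the horizontal log axis and its log2 change at 2 h over DMSO on the vertical axis. The 2007 losses outside the stretch (blue) reach further from 0 than the 681 gains (red), and the 127 called regions of the stretch (orange) hold most of the gains above 1 on the log2 scale.

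The deepest losses lay in genes or between genes on several chromosomes, with no chromosome holding more than 3 of the leading 12. The lowest log2 change of all was in ARID4B, which encodes a subunit of a SIN3 histone deacetylase complex. This region, chr1:235344260-235344660, had 2.54 and 3.99 CPM in the 2 h libraries A and B, against 18.2 and 12.1 CPM in the DMSO libraries A and B. Both 2 h values lay far below both DMSO values, and 21% of the mean DMSO level remained (log2 change -2.25, SE 0.24, adjusted p = 9.5e-07). The region with the smallest p of the whole comparison lay between CDC5L, a splicing factor gene, and SUPT3H, which encodes a subunit of a histone acetyltransferase complex. It was also one of the most open of the 12. At chr6:44628192-44628592 the 2 h libraries had 18.1 and 17.7 CPM, against 62.3 and 62.0 CPM in DMSO. Replicates there differed by less than 1 CPM in either group (log2 change -1.80, SE 0.10, adjusted p = 4.0e-11).

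Of the other leading losses, 3 lay close together on chromosome 12, outside the stretch treated apart. They lay between HMGA2 and LLPH, in IRAK3 and in GRIP1. HMGA2 encodes an architectural chromatin protein of embryonic tissue and of tumours, IRAK3 an inhibitor of Toll-like receptor signalling, and GRIP1 a scaffold for glutamate receptors. At chr12:66508872-66509272, by HMGA2, the level was 6.6 and 4.79 CPM at 2 h and 20.5 and 21.7 CPM in DMSO (log2 change of -1.87 with an SE of 0.16, adjusted p = 3.5e-08). At chr12:66634827-66635227 in IRAK3 it was 6.26 and 4.59 CPM at 2 h and 19.8 and 21.7 CPM in DMSO (log2 change of -1.92 with an SE of 0.16, adjusted p = 3.2e-08). At chr12:66997804-66998204 in GRIP1 it was 4.4 and 5.79 CPM at 2 h and 20.7 and 19 CPM in DMSO (log2 change of -1.98 with an SE of 0.17, adjusted p = 3.5e-08). The groups did not overlap at any of the 3, which their choice required. Between 66 and 68 Mb of that chromosome 6 of 34 regions were lower and 0 higher (17.6%, against 4.92% of all regions), with a median log2 change of -1.35 over the 6. This window holds the 3 regions chosen above as leading losses, which favours a high share.

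A like group lay on chromosome 11 around NELL1, a secreted protein of bone and nerve and a reported target of the fusion. Inside NELL1, chr11:20791973-20792373 had 10.8 and 11.5 CPM at 2 h, against 43.3 and 33.9 CPM in DMSO (log2 change of -1.80 with an SE of 0.13, adjusted p = 5.7e-09). Between DBX1, a homeobox gene of the developing neural tube, and HTATIP2, chr11:20297678-20298078 had 5.84 and 5.79 CPM at 2 h, against 23.2 and 19 CPM in DMSO (log2 change of -1.87, adjusted p = 3.5e-08). From 20 to 22 Mb 8 of 38 regions were lower and 0 higher (21.1% lower, against 4.92% of all regions), with a median log2 change of -1.08 over the 8. This window holds both regions given above, chosen as leading losses, which favours a high share.

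The remaining 5 of the 12 stood in KCNIP1 and KCNIP4, calcium-binding partners of voltage-gated potassium channels, between GALR1 and SALL3, between SPHKAP and PID1, and between CHD6 and PTPRT. KCNIP1 showed the deepest of these. Its region chr5:170008193-170008593 had 4.99 and 6.29 CPM at 2 h, against 21.1 and 23.1 CPM in DMSO (log2 change of -1.97 with an SE of 0.16, adjusted p = 3.2e-08). The other 4 had log2 changes of -1.80 to -1.87. Over all 12, the share of the DMSO level that remained was 21% to 28.8%, and mean levels were 2.57 to 17.9 CPM at 2 h and 9.46 to 62.2 CPM in DMSO. Both 2 h libraries were below both DMSO libraries at every one of them, which the choice of these regions required.

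**Figure D2:**
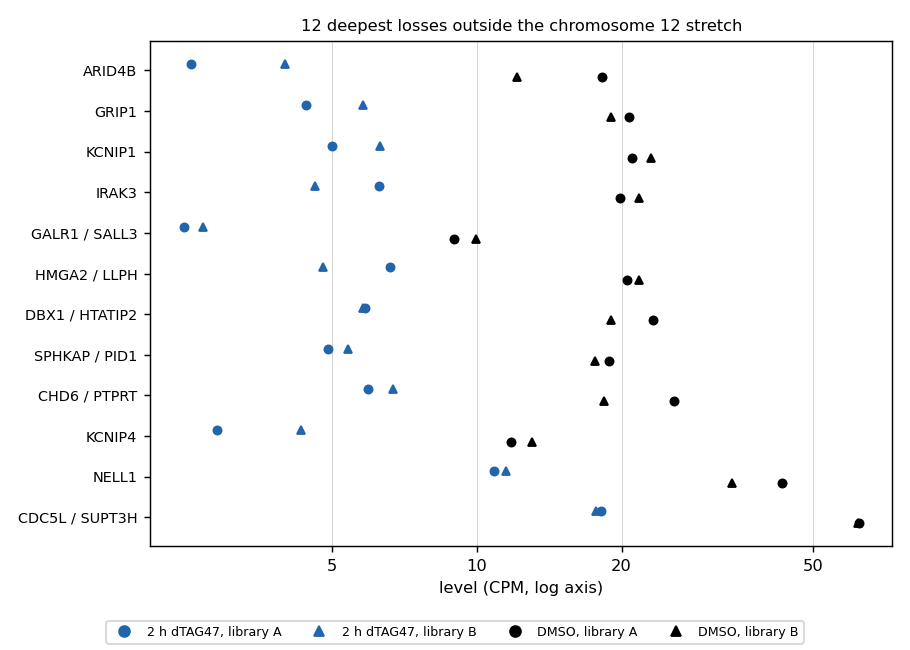
Each row is one of the 12 deepest losses outside the stretch, named by the gene it lies in or the genes it lies between, with the level in CPM on a log axis. The 2 h libraries (blue, above) sit at 2.45 to 18.1 CPM and the DMSO libraries (black, below) at 8.95 to 62.3 CPM, and no row overlaps.

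Earlier libraries of 6211, set against the same DMSO libraries, placed these 12 losses between DMSO and 2 h. Their log2 changes ran from -0.87 to -0.40 at 0.5 h, from -1.45 to -0.78 at 1 h and from -2.25 to -1.80 at 2 h. The region between CDC5L and SUPT3H had 39.4 and 42.4 CPM at 0.5 h, 36.2 and 36.4 CPM at 1 h and 18.1 and 17.7 CPM at 2 h. It alone of the 12 was past the threshold at 0.5 h (adjusted p = 0.0086). At 1 h all 12 were, with the largest adjusted p, 0.0015, between GALR1 and SALL3. Over the 2007 losses outside the stretch the median log2 change was -0.25 at 0.5 h, -0.41 at 1 h and -0.60 at 2 h. These regions were chosen at 2 h and all times share the DMSO libraries, so the medians are a description.

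Losses with the smallest p, a selection made after the values were seen, brought in more open regions with a smaller change. Of the leading 10, 3 were among the deepest 12 as well. The others included PSMB2, a proteasome subunit gene, PIPOX, a peroxisomal enzyme gene counted among the fusion's targets, FGGY, a sugar kinase gene, and NKAIN1, a neuronal membrane protein gene. In PSMB2, chr1:36071004-36071404 had 15.8 and 16.9 CPM at 2 h, against 55.3 and 51.3 CPM in DMSO (log2 change of -1.71 with an SE of 0.11, adjusted p = 1.5e-09). In PIPOX, chr17:27378228-27378628 had 26.1 and 21.7 CPM at 2 h, against 66.9 and 64.3 CPM in DMSO (log2 change of -1.45 with an SE of 0.10, adjusted p = 2.5e-09). The most open of the 10, chr16:89609375-89609775 in SPG7, a mitochondrial protease gene, had 45.7 and 47.3 CPM at 2 h, against 108 and 94.6 CPM in DMSO (log2 change of -1.13 with an SE of 0.09). In each of these the 2 h values were close together and well apart from DMSO, which a choice by smallest p favours. Across the 10, 26.5% to 45.7% of the DMSO level remained.

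The share of regions called lower was smallest among the least open ones. Regions outside the stretch were ranked by their DMSO level and split into 5 groups of like size. In order of increasing level, 1.42%, 4.42%, 5.97%, 6.95% and 5.97% of the regions were lower, while 2.84%, 1.38%, 1.21%, 1.55% and 1.40% were higher. The median log2 change of the lower regions was -0.71 in the least open group and -0.45 in the most open one. Power to call a change grows with read count, and the ranking uses the DMSO libraries themselves. The part of either in these shares was not tested.

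By chromosome, chromosomes 8 and 14 each had 6.30% of their regions lower and chromosome 4 had 6.05%, whereas chromosome 19 had 1.96%, chromosome 22 had 2.91% and chromosome 17 had 3.06%. Gains outside the stretch ran differently. Chromosome 20 had 4.49% of its regions higher, chromosome 17 had 3.32% and chromosome 1 had 2.73%, against 1 region each on chromosome X (0.134%) and chromosome 13 (0.145%). In windows of 1 Mb, the most losses were 9 of 45 regions, at 89 to 90 Mb of chromosome 9, with log2 changes down to -1.35. The next were 8 of 58 at 133 to 134 Mb of the same chromosome, the window that holds ASS1 and PRDM12. Outside the stretch the most gains were 11 of 53 regions, at 62 to 63 Mb of chromosome 20. Over all regions outside the stretch 4.94% were lower and 1.68% higher. The windows given are the extremes of 2713, and whether they exceed what so many windows would give was not tested. In all, 1236 of 2713 windows held a loss, 471 held at least 2, and 15 held at least 6. Another loss lay within 100 kb of 610 of the 2007 losses (30.4%) and a gain within 100 kb of 82 (4.09%). For the 681 gains outside the stretch, another gain lay that close to 311 (45.7%) and a loss to 102 (15.0%). The share over all regions was not measured.

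Near genes reported as targets of PAX3-FOXO1 losses outnumbered gains. In or within 100 kb of 25 such genes lay 279 regions, of which 36 were lower (12.9%, against 4.92% of all) and 4 higher (1.43%, against 1.97%), and the median log2 change was -0.04. TFAP2B and DCC had no region there. Of the 23 genes with one, 18 had at least 1 loss, against 5 of 12 myogenic, 7 of 20 contractile and 3 of 10 housekeeping genes. Windows of neighbouring genes can share a loss, and the 7 contractile genes rest on 5 lower regions. Among the losses with the smallest p per gene, DESeq2 did not call those of CDH3, IGF1R, ABAT and ARHGAP25. Their adjusted p with DESeq2 was 0.155, 0.161, 0.120 and 0.052, and the other named losses of the list passed. The list comes from general knowledge of the field and was used with earlier results of these data known, so that its counts are a description.

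Signalling genes of the list gave several of these. ALK encodes a receptor tyrosine kinase, and in it chr2:29880664-29881064 had 19.1 and 18.1 CPM at 2 h, against 40.5 and 35.1 CPM in DMSO (log2 change of -1.03 with an SE of 0.11, adjusted p = 1.0e-06). BMP5 encodes a secreted growth factor, and in it chr6:55734484-55734884 had 9.14 and 6.79 CPM at 2 h, against 16.2 and 17.4 CPM in DMSO (log2 change of -1.06 with an SE of 0.16). The growth factor gene FGF8 had 3 lower and 1 higher of 19 regions. In or within 100 kb of the chemokine receptor gene CXCR4 2 of 8 were lower. FGFR4, a receptor tyrosine kinase gene that the fusion is known to activate, had 0 calls among 12 regions, with log2 changes from -0.23 to 0.23. The other genes with a region and no loss were MET, CNR1, JARID2 and GREM1. Of all regions 4.92% were lower and 1.97% higher, and counts over so few regions per gene are a description.

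Losses also lay in or within 100 kb of genes of metabolism, transcription and the cell cycle. ASS1 encodes an enzyme of arginine synthesis, and in it chr9:133354564-133354964 had 19.8 and 19.1 CPM at 2 h, against 48.3 and 44.0 CPM in DMSO (log2 change of -1.25 with an SE of 0.10, adjusted p = 3.2e-08). PRDM12 encodes a transcriptional regulator of sensory neurons, and in it chr9:133547862-133548262 had 39.3 and 36.3 CPM at 2 h, against 80.6 and 71.6 CPM in DMSO (log2 change of -1.01 with an SE of 0.09, adjusted p = 4.7e-08). Within 100 kb of SKP2, a ubiquitin ligase subunit gene of the cell cycle, but not in it, lay chr5:36222489-36222889. It had 13.2 and 11.8 CPM at 2 h, against 29.3 and 23.3 CPM in DMSO (log2 change of -1.08 with an SE of 0.14). At all 3 both 2 h libraries lay below both DMSO libraries, as they did at 2004 of the 2007 losses outside the stretch. PIPOX, with the region given above, had 5 lower and 1 higher of 33 regions. Near OLIG2, a neural transcription factor gene, the lowest log2 change was -0.92, with 1 of 12 regions lower. The shares over all regions were 4.92% lower and 1.97% higher.

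Regions in or within 100 kb of the core muscle regulator genes were called about as often as regions in all. Of 132 regions in or near 12 myogenic factor genes 7 were lower (5.30%) and 3 higher (2.27%), against 4.92% and 1.97% of all regions, and the median log2 change was 0.01. MYOD1, the master regulator of the muscle fate, had 2 lower of 17 regions, and the one with the smallest p, chr11:17672005-17672405, had 117 CPM in both 2 h libraries, against 145 and 139 CPM in DMSO (log2 change of -0.28 with an SE of 0.07, adjusted p = 0.010). MYOG, which acts in differentiation, had 0 calls among 16 regions, with log2 changes from -0.14 to 0.28. Within 100 kb of PITX3, chr10:104028784-104029184 had 50.6 and 54.1 CPM at 2 h, against 76.0 and 73.2 CPM in DMSO (log2 change of -0.51 with an SE of 0.08, adjusted p = 0.00020). Neither this region nor the one given for MYOD1 lay in the gene itself. The loss in the window of PITX3 passed in every setting tried. The one in the window of MYOD1 missed the threshold in 4, among them a test against a 1.2-fold change. Its log2 change was -0.25 when DMSO library A was left out, and -0.28 when either 2 h library, A or B, was.

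Genes of the contractile apparatus went both ways. Of 186 regions 5 were lower (2.69%, against 4.92% of all regions) and 6 higher (3.23%, against 1.97%). Losses included chr17:10257830-10258230, within 100 kb of MYH8, a perinatal myosin gene, but not in it. It had 12.7 and 11.8 CPM at 2 h against 28.5 and 23.7 CPM in DMSO (log2 change of -1.10 with an SE of 0.15). Another was chr2:179632112-179632865 in TTN, which encodes titin, with 11.6 and 13 CPM at 2 h against 23.9 and 21.2 CPM in DMSO (log2 change of -0.88 with an SE of 0.13). The highest of the gains was chr16:30387122-30387522 in MYLPF, a myosin light chain gene of fast muscle, with 10.9 and 13.1 CPM at 2 h against 6.51 and 7.62 CPM in DMSO (log2 change of 0.77 with an SE of 0.17, adjusted p = 0.0055). Its 4 values did not overlap, yet its adjusted p was 0.091 without DMSO library A and 0.11 without 2 h library B. In regions near 8 AP-1 genes, early response factors, 1 of 132 was lower and 1 higher (0.758% each, against the same 4.92% and 1.97%). Near 10 housekeeping genes 3 of 102 were lower (2.94%) and 1 higher (0.980%), the lowest in the 100 kb window of HPRT1 with a log2 change of -1.07.

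The highest gains outside the stretch differed between libraries A and B. Of the 12 highest log2 changes, from 0.97 to 1.14, 9 had library B over 1.2 times library A in both groups, while this held for 0 of the 12 deepest losses. Most of them lay beside centromeres or in other parts of the genome where no gene was named, on chromosomes 2, 5, 10, 16 and 17. The highest, chr16:46391136-46391536 beside the centromere of chromosome 16, had 7.45 and 11.4 CPM at 2 h, against 3.11 and 5.55 CPM in DMSO. In the 1 h libraries, which share the DMSO group, it had 2.80 and 2.69 CPM, below both DMSO values. The groups of 2 h and DMSO did not overlap (log2 change 1.14, SE 0.25, adjusted p = 0.0039), but the log2 change was 0.74 without DMSO library A (adjusted p = 0.14) and 0.82 without 2 h library B (adjusted p = 0.14). Of the 12, 4 stayed called without DMSO library A, with log2 changes of 0.30 to 0.98, and 3 without 2 h library B, with log2 changes of 0.59 to 1.15. In these 12 regions log2 changes at 1 h ran from -0.62 to 0.72. Of the 12, 5 were past the same threshold in the authors' deposited table. The called gain with the most reads, chr1:121484617-121485017 beside the centromere of chromosome 1, had 722 and 989 CPM at 2 h, against 509 and 713 CPM in DMSO (log2 change of 0.49, adjusted p = 0.012), and 5 of the settings tried ended its call, among them leaving out DMSO library A (log2 change 0.26, adjusted p = 0.20) or 2 h library B (log2 change 0.24, adjusted p = 0.415). The part of repeated sequence in these counts was not tested.

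Selecting gains by the smallest p instead, again after the values were seen, gave regions at named genes with closer replicates. Such a choice favours close replicates, and it required that the 2 h and DMSO libraries did not overlap. The first, chr20:60912623-60913023 in LAMA5, which encodes a laminin chain of basement membranes, had 22.9 and 24.4 CPM at 2 h, against 10.4 and 13.8 CPM in DMSO. Both 2 h libraries were above both DMSO libraries (log2 change 0.98, SE 0.14, adjusted p = 6.0e-05). The second, chr11:2149358-2149758, lay within 1 kb of IGF2, an imprinted growth factor gene that is strongly expressed in rhabdomyosarcoma. It had 19.5 and 19.3 CPM at 2 h, against 8.58 and 11.4 CPM in DMSO (log2 change of 0.97 with an SE of 0.14, adjusted p = 7.6e-05). On the same chromosome arm chr11:2821328-2821728 in KCNQ1, an imprinted potassium channel gene, had 18.9 and 18.5 CPM at 2 h, against 10.1 and 11.9 CPM in DMSO (log2 change of 0.77 with an SE of 0.14, adjusted p = 0.00069). The window from 2 to 3 Mb that holds both had 9 of 44 regions higher and 0 lower, where 1.68% of all regions outside the stretch were higher and 4.94% lower. Both were chosen as leading gains, which favours a high share in their window.

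Other gains of the 10 were in DAB2IP, a Ras GTPase-activating protein gene, within 1 kb of TMEM119, a membrane protein gene of bone and microglia, between CCDC57 and the lactate transporter gene SLC16A3, between DERL3 and SLC2A11, between AHDC1 and FGR, and between the peptidylarginine deiminase genes PADI2 and PADI1. By TMEM119, chr12:108982787-108983187 had 17.3 and 20.8 CPM at 2 h, against 10.5 and 10.4 CPM in DMSO (log2 change of 0.86 with an SE of 0.14, adjusted p = 0.00019). In DAB2IP, chr9:124366458-124366858 had 15.5 and 16.7 CPM at 2 h, against 9.09 and 8.94 CPM in DMSO (log2 change of 0.83 with an SE of 0.14, adjusted p = 0.00029). Their replicates lay close together and the groups stood apart, which their choice by smallest p favours. Between ISCU and TMEM119 lay also the widest called region, chr12:108976760-108977553, with 59.7 and 59 CPM at 2 h against 47.0 and 48.8 CPM in DMSO (log2 change of 0.31, adjusted p = 0.020). Its call was lost with DESeq2 (adjusted p = 0.10) and when DMSO library A (0.142), 2 h library A (0.105) or its partner B (0.112) was left out. Over all 10, log2 changes ran from 0.16 to 0.49 at 0.5 h, from 0.27 to 0.51 at 1 h and from 0.61 to 0.98 at 2 h. None of the settings tried ended the call of any of the 10, DESeq2 and so the authors' deposited table included. The settings reuse libraries from which these 10 were chosen by smallest p, which favours this outcome.

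**Figure D3:**
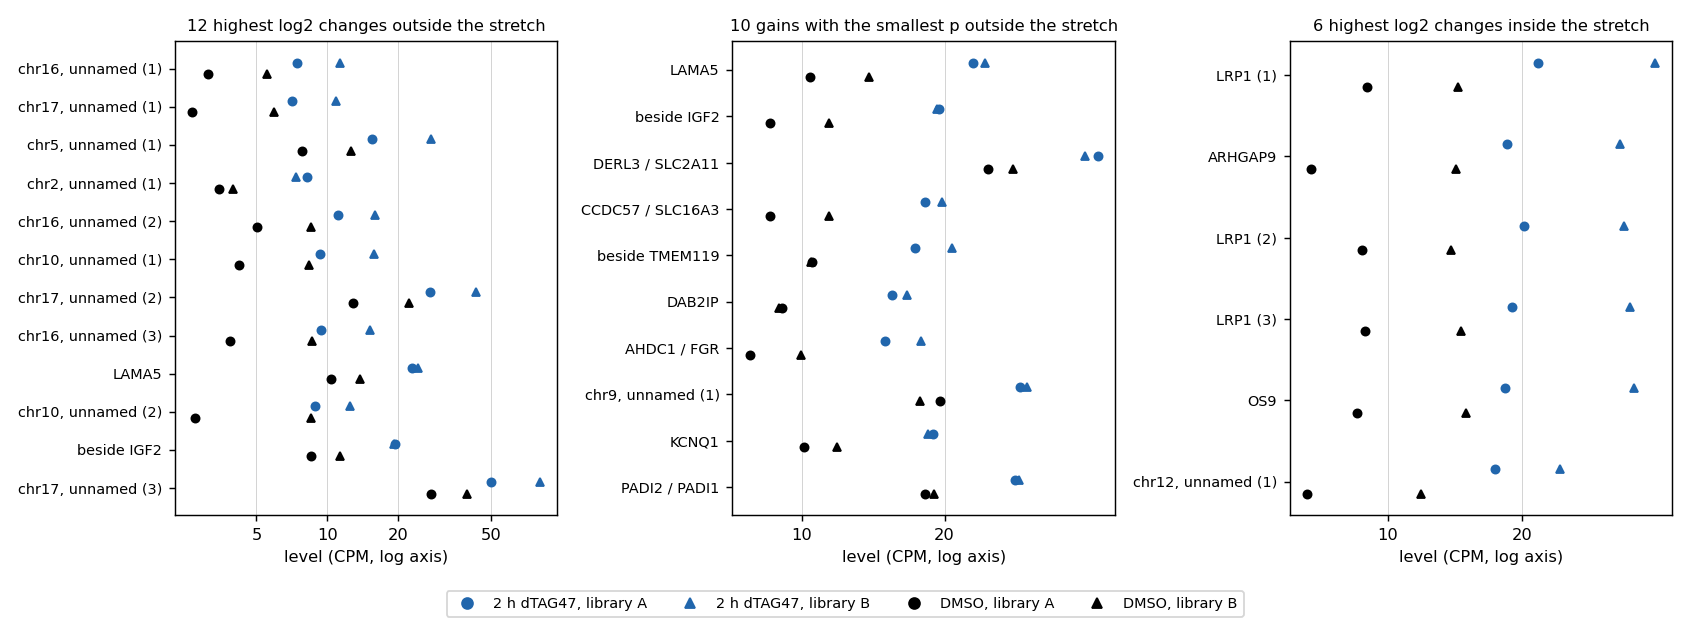
Rows are higher regions, with the level in CPM on a log axis, 2 h libraries (blue) above DMSO libraries (black), circles for library A and triangles for library B. In 9 of the 12 regions at left and in all 6 of the stretch at right library B lies over 1.2 times library A in both groups, which holds for 0 of the 10 in the middle. Those 10 were chosen by smallest p, which favours close replicates.

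The stretch at 57 to 59 Mb of chromosome 12 holds the oncogenes GLI1 and CDK4 and is known to be amplified in Rh30 cells, although copy number was not measured here. It held 15.5% of all higher regions and 0.612% of those tested. Its 250 regions took 1.53% and 1.66% of the reads of the 2 h libraries A and B, against 1.34% and 1.45% in the DMSO libraries A and B. Libraries of 0.5 h had 1.43% and 1.48%, and those of 1 h had 1.40% and 1.38%. Both 2 h libraries were thus above the other 6, and library B was above library A in both groups compared. The median log2 change over the 250 regions was 0.41, and 213 of them were above 0. Without 2 h library B 19 higher regions were called in the stretch, and 46 without DMSO library A.

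The log2 change in the stretch was smaller at more open regions. In 4 groups of like size ordered by DMSO level, median levels were 22.8, 24.9, 35.2 and 105.8 CPM at 2 h, against 12.2, 16.3, 28.7 and 109.9 CPM in DMSO. The median difference per region, in CPM, was 10.9, 9.47, 6.72 and 3.78, and the median log2 change was 0.91, 0.67, 0.32 and 0.04. Higher calls numbered 49 of 63, 42 of 62, 27 of 62 and 7 of 63. In CPM the difference was thus largest where DMSO was lowest. The ranking uses the DMSO libraries themselves, and its part in this order was not tested.

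The 6 highest log2 changes of the stretch, 1.2 to 1.41, were in LRP1 at 3 places, in ARHGAP9 next to GLI1, in OS9 near CDK4, and at a region with no gene named. LRP1 encodes an endocytic receptor. Its region chr12:57539061-57539461 had 21.7 and 39.8 CPM at 2 h, against 8.95 and 14.4 CPM in DMSO (log2 change of 1.41 with an SE of 0.23, adjusted p = 0.00027, and 0.073 with DESeq2). Within either group library B was over 1.2 times library A in all 6, by a median ratio of 1.81 at 2 h. Of the 6, 0 were past the threshold in the authors' deposited table, and 2 were without 2 h library B, where the log2 changes were 0.67 to 0.95. At 1 h their log2 changes were -0.27 to 0.26. Over the 125 higher regions of the stretch the median ratio of library B to library A was 1.42 at 2 h and 1.40 in DMSO, whereas it was 1.04 and 1.06 in the 681 higher regions outside. The 2 lower regions of the stretch were strongly open. In R3HDM2, chr12:57666541-57666941 was the called loss with the most reads of the whole table. It had 422 and 414 CPM at 2 h, against 506 and 491 CPM in DMSO (log2 change of -0.25 with an SE of 0.06, adjusted p = 0.0081). The second loss, chr12:58428077-58428477, had 60.9 and 63.1 CPM at 2 h, against 79.3 and 78.4 CPM in DMSO (log2 change of -0.35 with an SE of 0.07). Replicates were close at both losses, unlike in the gains, but 4 and 2 of the settings tried ended these calls. In R3HDM2 the adjusted p was 0.0559 when DMSO library A was left out, and 0.0526 and 0.122 when either 2 h library, A or B, was. At the second loss it was 0.0584 when 2 h library A was left out.

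**Figure D4:**
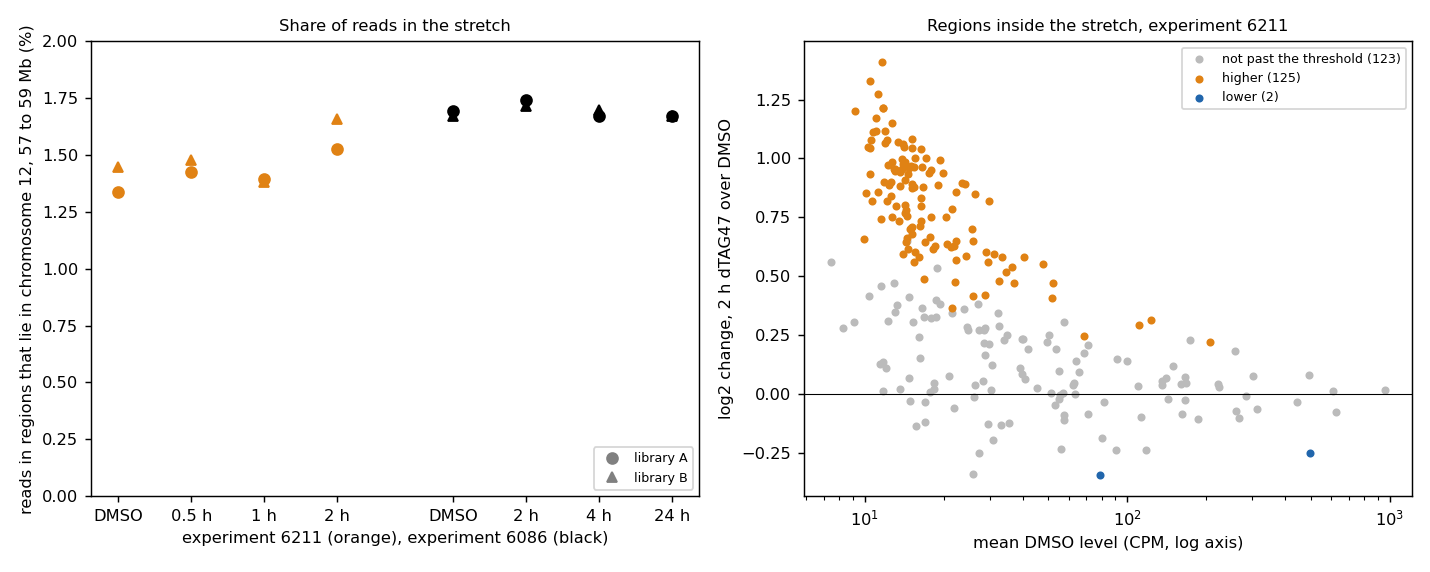
Left, the share of reads that fell in the stretch, in percent, for every library of both experiments. Right, the log2 change at 2 h against the mean DMSO level in CPM (log axis) for its 250 regions in 6211, where 125 higher regions (orange) lie mostly at low levels and the 2 lower ones (blue) at higher levels.

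Experiment 6086 measured the same contrast of 2 h against DMSO in libraries of its own, and 29639 regions of 6211 had a single partner there at 50% reciprocal overlap. Of the 2007 losses outside the stretch 1496 had a partner. In 6086, 1462 of these (97.7%) were below DMSO and 1114 (74.5%) were called lower, against 5.42% of all 29639 partners. Over all 29639 pairs, called or not, 67.1% had the same direction in both experiments. The median log2 change of the 1496 losses with a partner was -0.61 in 6211 and -0.48 in 6086. Among losses of at least 2-fold, 195 of 195 partners were called lower. Among losses under 1.5-fold, 402 of 699 were (57.5%). The shared losses made up 74.5% of those of 6211 and 69.4% of those of 6086 among matched regions. Leaving out DMSO library A gave 742 shared losses in place of 1114.

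Fewer of the gains were called in 6086. Of the 681 gains outside the stretch 533 had a partner, of which 495 (92.9%) were above DMSO in 6086. The same direction was shared by 67.1% of all pairs. Of the 533, 78 (14.6%) were called higher, against 1.16% of all partners. The median log2 change was 0.47 in 6211 and 0.17 in 6086. With the stretch included, the shared gains made up 14.9% of those of 6211 and 24.6% of those of 6086, and 0 regions were called in opposite directions. These 85 shared gains became 20 when 2 h library B was left out, 54 when 2 h library A was, and 25 when DMSO library A was. The difference between the 2 experiments' effects was itself tested as an interaction over the 29639 pairs. edgeR called 0 of them, with 1539 at an unadjusted p under 0.05, and DESeq2 called 0. Without DMSO library A edgeR called 5 and without DMSO library B 2. Medians in 6211 are of regions chosen there, which favours larger values in 6211, and read depth differed as well: 6086 libraries of these groups held 18038062 to 25803905 reads in regions.

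Named regions followed the same division. Of the 12 deepest losses 10 had a partner, and all 10 were called lower in 6086, with log2 changes from -2.02 to -1.37. Between CDC5L and SUPT3H the partner had 12.7 and 12.8 CPM at 2 h, against 42.5 and 38.4 CPM in DMSO, in 6086 (log2 change -1.66). There it went on to -3.34 at 24 h. By contrast, LAMA5 had a log2 change of 0.12 at 2 h in 6086 (adjusted p = 0.57), with 16.3 and 16.2 CPM at 2 h and 14.5 and 15.4 CPM in DMSO. At LAMA5 the difference between experiments was 0.85 on the log2 scale, and the interaction test gave an adjusted p of 0.90. Of the 10 gains with the smallest p 6 had a partner, and 2 were called higher in 6086, the region in KCNQ1 (log2 change 0.32, adjusted p = 0.039) and chr9:140119213-140119613 (log2 change 0.44, adjusted p = 0.00067). In the stretch 36 of the 125 higher regions had a partner, with a median log2 change of 0.24 in 6086. Of these, 35 were above DMSO there and 7 were called higher, where 1.16% of all partners were. Of the 213 regions that 6086 itself had in the stretch, 17 were called higher and 8 lower, with a median log2 change of 0.08. The share of reads in the stretch in 6086 was 1.74% and 1.72% at 2 h, against 1.69% and 1.67% in DMSO.

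**Figure D5:**
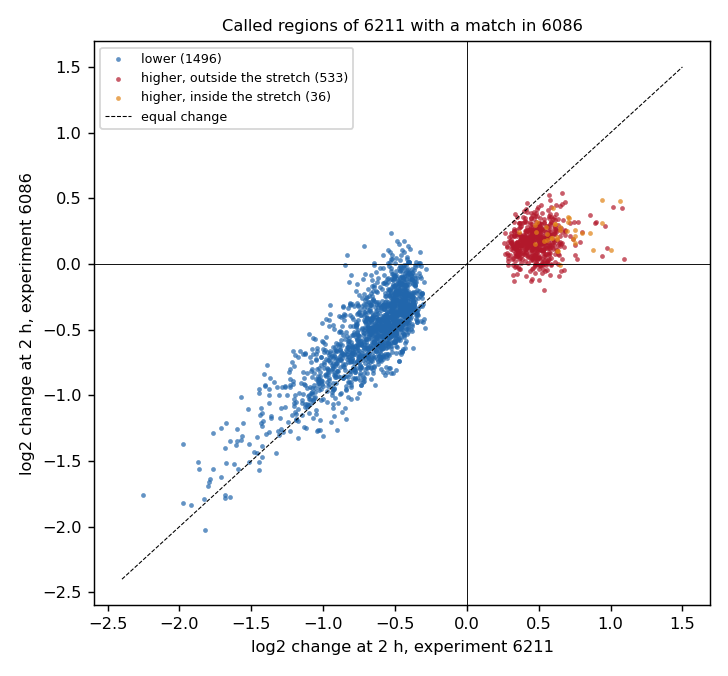
Each point is a called region of 6211 with a partner in 6086, with the log2 change at 2 h in 6211 on the horizontal axis and in 6086 on the vertical axis. Losses (blue, 1496) lie on both sides of the dashed line of equal change, with a median of -0.61 in 6211 and -0.48 in 6086. Gains (red, 533, and orange, 36) lie mostly below that line, with medians of 0.17 and 0.24 in 6086.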

How the data were processed

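ATAC-seq counts of 16 libraries came in 2 tables, of which that of experiment 6211 is the subject here and that of 6086 a second measurement. The deposited tables hold raw read counts per region, made by the authors. Per the submitters' processing notes, the tools included Genrich 0.6.1, Trimmomatic 0.32, DESeq2, DiffBind, deepTools and Bowtie2, and the builds hg19 and dm3. The sources used here do not state any transposase shift, duplicate removal or merging of regions. The authors' deposited comparison table gives log2 fold changes and p-values, per the file headers, used here only for counts of its calls and for a comparison with the DESeq2 run made here.

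Counts were fitted with edgeR 4.0.16 in R 4.3.3 (TMM, filterByExpr, which kept all 40844 regions, quasi-likelihood fit and test) over the 8 libraries of 6211, with 4 residual degrees of freedom and a biological coefficient of variation of 5.96%. Calls required an adjusted p (Benjamini-Hochberg) under 0.05. The scripts were tested on simulated data. Columns were assigned by treatment and time. The letters A and B could not be tied to the labels' replicate numbers.

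Named regions averaged 30 counts or more, with no overlap of the 2 h and DMSO libraries in log-CPM (prior count 2). They are the 12 lowest and 12 highest log2 changes outside the stretch, the 6 highest and any lower one inside, and the regions with the smallest p, the largest width and the largest count in each direction. The 10 smallest p in each direction and the smallest p per list gene were added after the values were seen. The members, the stretch and the lists were chosen with earlier results of these data known. Gene lists used a window of 100 kb to either side of the gene. Of 134 gene spans taken from general knowledge, 134 had the same chromosome in RefSeq on GRCh38 and 116 a like length (within 2 kb or 10%). No coordinates were converted. Regions of 6086 were matched 1 to 1 at 50% reciprocal overlap (GenomicRanges 1.54.1), and the difference of effects was an edgeR interaction with TMM within each experiment. Alternatives were DESeq2 1.42.0, other scalings, filters, single libraries left out, a block for the letter, a test against a 1.2-fold change and other overlaps.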

Additional observations from a re-analysis of the deposited data

Results flagged for a closer look

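1 named region was on opposite sides of DMSO in the 2 experiments, with every 2 h library of 6211 below its DMSO libraries and every 2 h library of 6086 above its own. It is chr15:99440148-99440548 in IGF1R, the gene of the insulin-like growth factor receptor. In 6211 it had 10.3 and 8.79 CPM at 2 h, against 13.6 and 14.1 CPM in DMSO (log2 change -0.53, adjusted p = 0.023). In 6086 it had 7.10 and 8.19 CPM at 2 h, against 6.44 and 6.53 CPM in DMSO (log2 change 0.23, adjusted p = 0.35). The difference between the log2 changes, 6211 minus 6086, was -0.77, and the edgeR interaction test gave an adjusted p of 0.90. The call in 6211 was lost in 6 of the settings tried, with adjusted p-values of 0.079 and 0.066 without DMSO libraries A and B and 0.26 without 2 h library B.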

How the results depend on the processing

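No result changed direction in any alternative. In order of all lower, all higher, lower outside the stretch, higher outside, lower inside and higher inside, the counts of 2009, 806, 2007, 681, 2 and 125 became 1186, 155, 1184, 110, 2 and 45 with DESeq2, and 888, 122, 888, 45, 0 and 77 in a test against a 1.2-fold change. With only the 2 h and DMSO libraries in the fit, 418 regions were higher, 306 of them outside the stretch. Leaving out 1 library at a time gave 1119 to 2247, 109 to 1109, 1118 to 2243, 90 to 974, 0 to 4 and 19 to 135. The 2 losses inside the stretch rest on single libraries: 0 were called without 2 h library A and 4 without DMSO library B. The lower share of calls was 71.4%, and 88.4% with DESeq2, 66.0% with library size only (1853 lower, 956 higher), 86.9% without DMSO library A and 91.1% without 2 h library B. Other scalings and filters kept each of these counts within 1.5 times. The cause of these shifts was not tested.

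Losses shared with 6086 numbered 1114, and 690 with DESeq2, 125 at 90% reciprocal overlap (2292 pairs in place of 29639), and 742 to 1110 with 1 library of 6211 left out. Shared gains numbered 85, and 6, 7 and 20 to 94. The interaction count of 0 became 5 when DMSO library A was left out and 2 when library B of that group was.

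With the library letter as a replicate block, 2204 regions were lower and 961 higher. Deviations of the A and B libraries from their group means had a correlation of -0.052 between 2 h and DMSO over all regions, so that the letters are not taken to pair the libraries. In the stretch library A was below library B in both groups, with a median A minus B of -0.25 at 2 h and -0.25 in DMSO in log2 CPM, and the block gave 130 higher regions there. Over the named regions 1066 of 1207 recomputed calls stayed on their side of the threshold and 141 did not. The 12 deepest losses and the 10 gains with the smallest p lost no call, which for these gains their choice by p favours. Of the 12 highest gains outside the stretch 10 lost it in at least 1 setting and at most 5, and of the 6 highest inside all 6 did, in at most 2. Intervals and p-values cover the spread of 2 libraries a group, and a uniform change of all regions would not be seen after TMM scaling.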
